A study of Mus musculus with 8 samples.

Results

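The cytosolic ribosomal protein genes were measured in bulk RNA sequencing of the aorta of Marfan syndrome mice. All mice were male and carried 1 copy of the C1041G allele of fibrillin-1 (Fbn1 C1041G/+), which models Marfan syndrome and its aneurysms of the thoracic aorta. The groups were 4 mice of 12 weeks and 4 mice of 2 years, set up to compare growing with growth-arrested aneurysms. No wild-type mice were among the samples used here, so age in mutant mice was the single contrast. The members were the gene symbols of the deposited count files that begin with Rps or Rpl followed by a number and at most one of the letters a, x or l, together with Rplp0, Rplp1, Rplp2 and Rpsa. The rule found 80 of 25526 symbols, of which 31 belong to the small and 49 to the large ribosomal subunit, counting paralogs. It left out other ribosomal genes, among them Rps3a1, Rack1, Fau and the paralogs Rpl22l1, Rpl7l1 and Rpl36al, whose values are given apart.

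A cytosolic ribosome is built from a small subunit, which decodes the messenger RNA, and a large subunit, which joins the amino acids and holds the exit tunnel of the new protein. Each subunit contains ribosomal RNA and 1 copy of most ribosomal proteins, so cells make these proteins in matched amounts, and an unassembled surplus is degraded. Their messenger RNAs are short, abundant and usually start with a C followed by an unbroken run of C and T, the terminal oligopyrimidine motif through which mTORC1 and the RNA-binding protein Larp1 control their translation. In bulk tissue, fewer cells of a type and less RNA per cell cannot be told apart.

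The start-site windows of 6 members are shown, because they include members with large (Rps27, Rpl39, Rps18) and small (Rpl4, Rpl14) age differences, and Rps27l beside its parent Rps27. Each has 30 bases, 15 before the annotated transcription start and 15 from the start onward, read 5′ to 3′ on the gene's strand from RefSeq on GRCm38.p6. Capitals mark the longest C and T run that touches the 5 bases on either side of the start, as far as it lies in the window. The coordinates are chr3:90213634-90213663 (minus strand) for Rps27, chr9:66946071-66946100 (plus) for Rps27l and chrX:37085208-37085237 (minus) for Rpl39. They are chr17:33955651-33955680 (minus) for Rps18, chr9:64173372-64173401 (plus) for Rpl4 and chr9:120571502-120571531 (plus) for Rpl14.
Rps27: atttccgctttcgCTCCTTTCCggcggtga
Rps27l: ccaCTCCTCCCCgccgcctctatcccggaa
Rpl39: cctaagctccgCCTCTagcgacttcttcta
Rps18: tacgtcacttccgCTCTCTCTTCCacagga
Rpl4: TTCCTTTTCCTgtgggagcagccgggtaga
Rpl14: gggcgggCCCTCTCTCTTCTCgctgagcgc

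In Rps27, Rps18, Rpl39 and Rpl14 the annotated start lies inside the run, whereas the runs of Rps27l and Rpl4 end upstream of their annotated starts. The RefSeq table held a promoter for 60 members, 57 of them among the tested genes. The other genes were all remaining symbols of that table, whether or not they were tested here, so the sets differ in expression. For a gene with several annotated starts, the window with a C start and the longest run was preferred, by the same rule for every gene. Genes with more annotated starts thus had more chances to show the feature. A start on C followed by at least 4 further C or T bases was found in 13 of these 57 members (22.8%) and in 2.97% of 26965 other genes. These shares rest on annotated starts, and the starts used in these libraries were not measured. A C and T run of at least 8 bases touching the start region was found in 23 of 57 members (40.4%) and in 10.8% of other genes. Over the 300 bases of each promoter, on both strands, CCGGAA, a core of ETS family sites, was present in 29 members (50.9%) and in 15.1% of other genes. ATGGCGG, a core of YY1 sites, was present in 9 members (15.8%) and in 4.13% of other genes. The TATA box letters TATAAA were in 6 members (10.5%) and in 14.3% of other genes. The C and T run did not order the members by their age difference. The median log2 fold change was 1.42 over the 23 members with a run of at least 8 and 1.35 over the 34 with a shorter run (Spearman rho -0.08 over 57 members that share the same 8 libraries).

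Each library held 16251986 to 33880690 gene counts. Mitochondrially encoded genes took 4.14% to 10.3% of them, and the highest share was in replicate 3 of the 2-year group, which was also the shallowest library. The defining markers of aortic smooth muscle were abundant in every library (summed 31763 to 37734 CPM, counts scaled to a library total of 1000000, at 12 weeks and 17944 to 27003 CPM at 2 years), and 7 of 10 were lower at 2 years. All 10 tested markers of B and plasma cells, all 11 of T and NK cells, 11 of 13 of macrophages and all 7 of red blood cells were higher at 2 years. All 3 tested neutrophil markers were higher too, and 6 of 10 heart muscle markers were lower. Of 10 fibroblast markers 2 were higher and 2 lower. Fat had 2 of 9 higher, and endothelium and skeletal muscle each 1 of 9 lower. Among all tested genes 25.8% were higher and 26.2% lower (edgeR adjusted p below 0.05). Summed macrophage markers were 860 to 1191 CPM at 12 weeks and 2879 to 4105 CPM at 2 years, and summed B and plasma cell markers were 2.92 to 4.40 CPM and 244 to 1246 CPM, with Mzb1 at 0 in every 12-week library. The dependence of the counts on transcript length also differed: the slope of log2 level on log2 length, against the mean of all libraries, was 0.13, 0.26, 0.24 and 0.23 at 12 weeks and -0.14, -0.32, -0.29 and -0.11 at 2 years. The part of these cell types in the results on the members was not tested. Age and the length trend separated the libraries the same way and cannot be told apart. Values after a correction for length and GC content are given beside the main results and the later lists. With it, 3 heart muscle markers were lower, and 6 red blood cell and 0 fat markers were higher. Endothelium then had 1 marker higher and 1 lower. The counts of the other cell types named here were unchanged (background 23% higher and 27.7% lower).

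The first question was how much of each library the members took and whether the amount moved with age. Summed over the 80 members, the share of all gene counts was 1.91%, 1.69%, 1.67% and 1.90% in the 12-week libraries and 3.81%, 4.79%, 5.48% and 3.58% in the 2-year libraries. Every 2-year library lay above every 12-week library, and the 2-year libraries were spread more widely. The mean was 1.79% ± 0.132 (SD, n = 4) against 4.42% ± 0.884 (SD, n = 4), with a two-sided exact permutation p = 0.0286, the smallest that 70 splits of 8 libraries allow. After removal of the length and GC trend fitted over all genes, the shares were 2.31% ± 0.125 and 3.51% ± 0.376 (SD, n = 4 each; exact permutation p = 0.0286), and the ranges, 2.22% to 2.50% and 3.15% to 3.96%, still did not overlap.

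The share of the small subunit members alone was 0.680% ± 0.0576 at 12 weeks and 1.86% ± 0.409 at 2 years, and the large subunit members 1.11% ± 0.0756 and 2.56% ± 0.477 (SD, n = 4 each). The balance between the subunits therefore moved as well. The log2 ratio of summed small to summed large subunit counts was -0.69, -0.77, -0.69 and -0.69 at 12 weeks and -0.50, -0.39, -0.45 and -0.55 at 2 years. The ratio was higher in all 4 libraries of the 2-year group, by 0.24 on the log2 scale (exact permutation p = 0.0286), and this ratio does not depend on how the libraries were scaled. After the length and GC trend was removed, the ratio was -0.69 ± 0.0398 and -0.48 ± 0.0691 (SD, n = 4 each), higher by 0.21 (exact permutation p = 0.0286). With the median over members in place of the sum, the difference was 0.18 and the groups overlapped (exact permutation p = 0.0571).

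Other large complexes with short transcripts were set beside the ribosome to see whether they took the same step. Mitochondrial ribosomal protein genes held 0.136% ± 0.00725 of the younger and 0.186% ± 0.0156 of the older libraries (SD, n = 4 each). Nuclear genes of the respiratory chain, which are about as short as the members (median longest coding transcript 787 nt against 914 nt), took 0.444% ± 0.0487 and 0.717% ± 0.0855. Constitutive proteasome genes took 0.227% ± 0.00846 and 0.338% ± 0.0332. All of these shares were higher in every 2-year library, and the share of the cytosolic ribosomal protein genes was higher by a larger factor. The log2 ratio of the members to the mitochondrial ribosome was 3.72 ± 0.0746 against 4.56 ± 0.172, higher by 0.84 at 2 years. The ratio to the respiratory chain was higher by 0.59 and the ratio to the proteasome by 0.71. Each of the 3 ratios had exact permutation p = 0.0286, also after Benjamini-Hochberg adjustment over the 3. With the fitted length and GC trend removed, the members stood higher by 0.58 against the mitochondrial ribosome, 0.51 against the respiratory chain and 0.43 against the proteasome (exact permutation p = 0.0286 each).

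**Figure D1:**
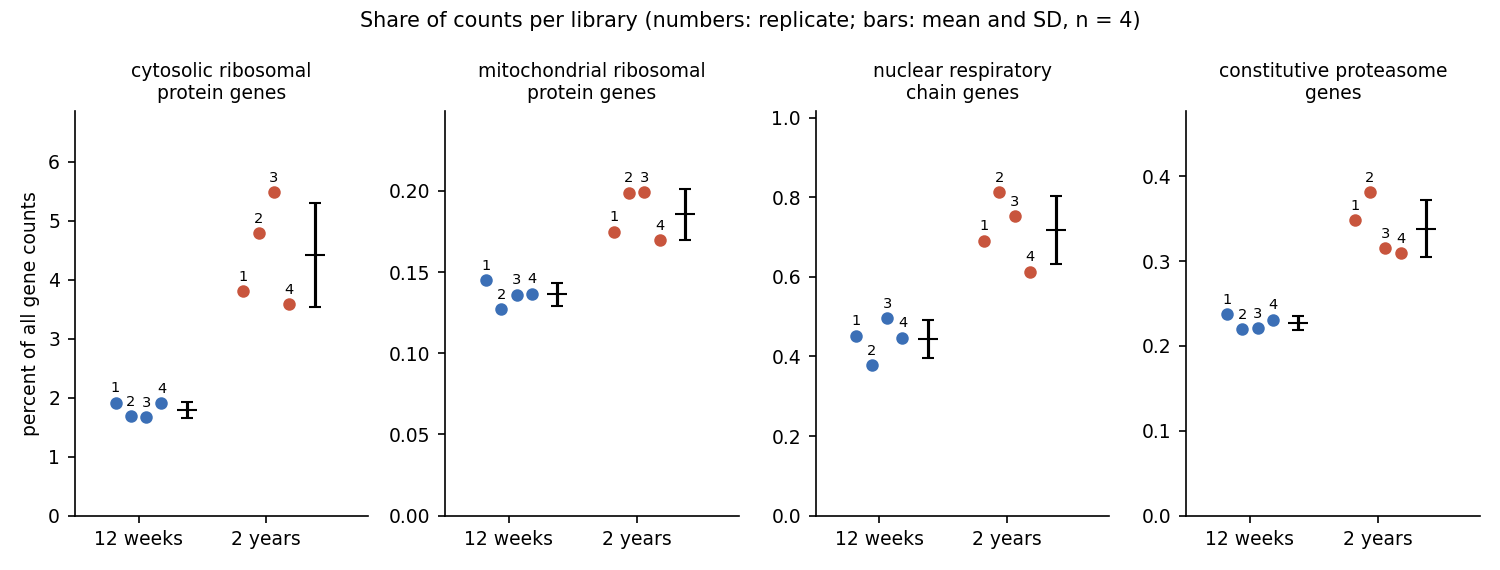
Percent of all gene counts per library (y axis, starting at 0 in each panel) taken by the cytosolic ribosomal protein genes and by 3 other complexes, by age group (x axis). Points are libraries numbered by replicate, and bars show the mean and SD of 4 libraries. The 2-year libraries lie above the 12-week libraries in every panel, and for the cytosolic ribosome they run from 3.58% to 5.48%.

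In edgeR's quasi-likelihood test over 13978 genes, 77 members had enough counts to be tested, and all 77 were higher at 2 years at an adjusted p below 0.05, where 25.8% of all tested genes were higher, 26.2% lower and 52% called in either direction. The background of genes that were higher by at least 2-fold was 11.7%, and 68 of the 77 members met it. The median log2 fold change of the members was 1.35, a fold of 2.54, beside a median of -0.01 over all tested genes. The members did not all move by the same amount, since the log2 fold change ran from 0.40 for Rpl4 to 2.22 for Rps14. The 31 small subunit members had a median of 1.47, with 29 at 2-fold or more, and the 46 tested large subunit members a median of 1.20, with 39 at 2-fold or more. For all 77 members every 2-year library exceeded every 12-week library in CPM, where 24.3% of tested genes were higher and 25.3% lower without overlap. CPM throughout are relative to the TMM-scaled library size.

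**Figure D2:**
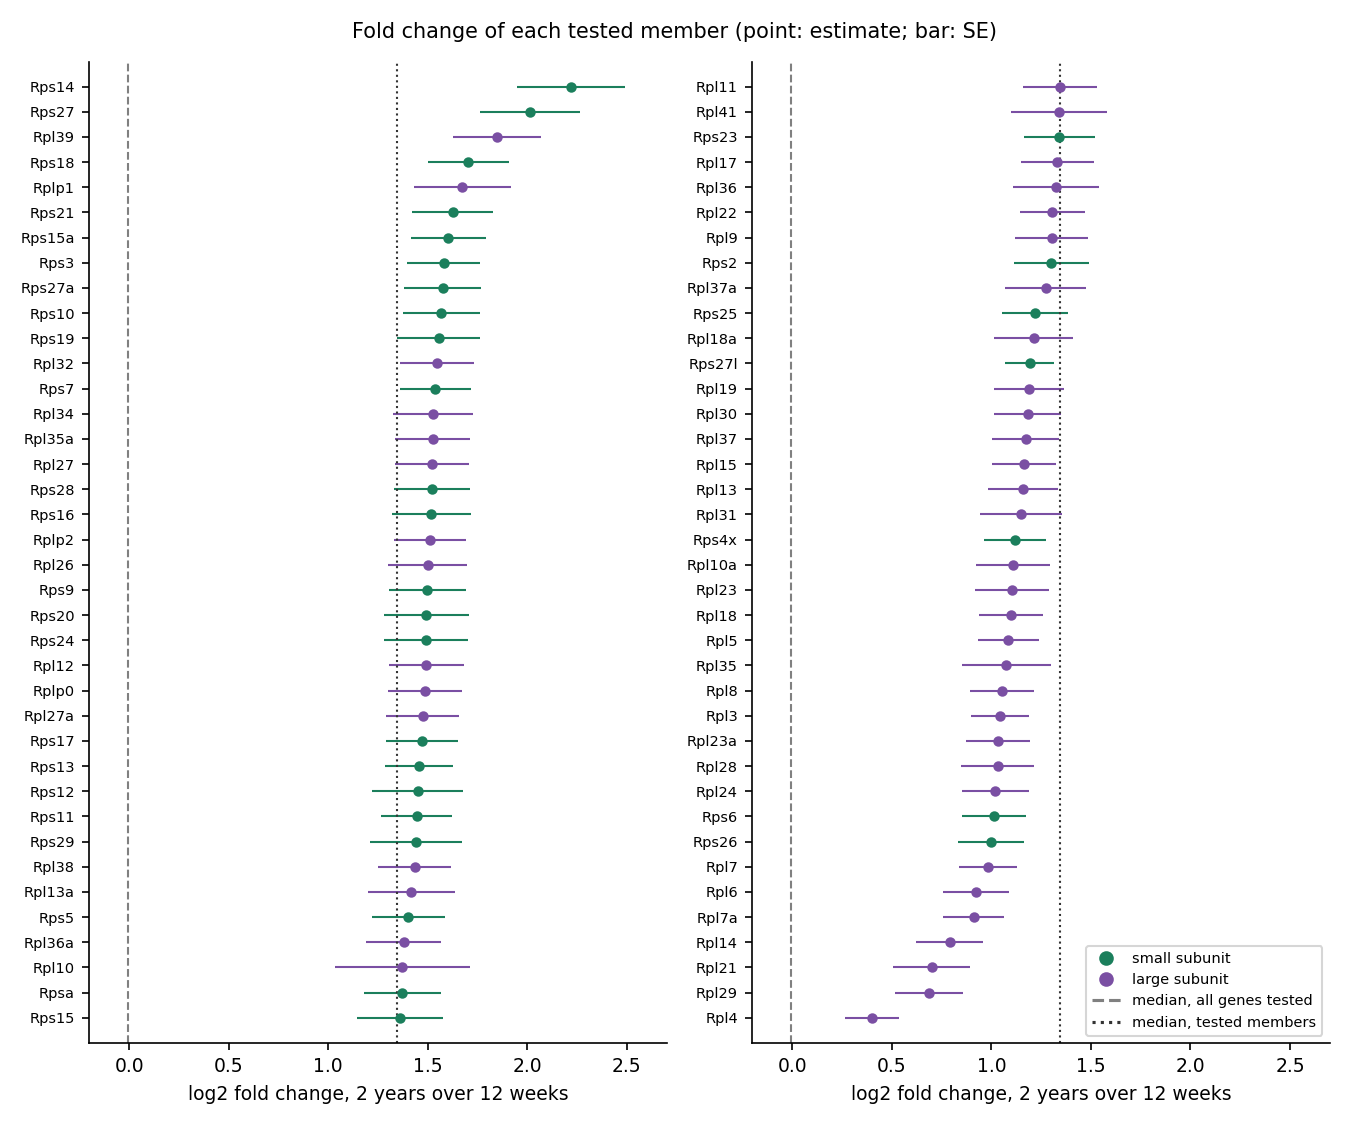
Log2 fold change of 76 tested members, 2 years over 12 weeks (x axis), with its standard error as a bar, sorted from the top left to the bottom right. Small subunit members (green) crowd the upper end and large subunit members (purple) the lower end. The dashed line is the median of all genes tested and the dotted line the median of the members, 1.35.

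Among the small subunit proteins, Rps14, a protein of the platform of the subunit, had the largest difference of all members. Its level was 263.1, 127, 156 and 205 CPM at 12 weeks and 680, 1059, 1145 and 611 CPM at 2 years. The 2-year values were all above 600 CPM and the 12-week values all below 300 CPM. The log2 fold change was 2.22 ± 0.273 (SE; edgeR adjusted p = 7.68e-05).

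Rps27, a zinc-finger protein of the small subunit, was at 107, 71.8, 110 and 136 CPM at 12 weeks and 326.1, 445, 626 and 321 CPM at 2 years. Its groups were also far apart, with replicate 2 lowest at 12 weeks and replicate 3 highest at 2 years. The log2 fold change was 2.01 ± 0.252 (SE; edgeR adjusted p = 8.35e-05). Rps18, which lies in the head of the small subunit, was at 198, 137, 146 and 175 CPM against 431, 577, 716 and 411 CPM. Its highest 12-week library remained at less than 50% of its lowest 2-year library, and its log2 fold change was 1.70 ± 0.203 (SE; edgeR adjusted p = 6.01e-05).

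Several small subunit members have roles outside the ribosome or in disease. Rps27a, which is made as a fusion with ubiquitin, had 210 ± 26.4 CPM at 12 weeks and 626 ± 167 CPM at 2 years (SD, n = 4; log2 fold change 1.57). Rps19, the gene most often mutated in Diamond-Blackfan anaemia, had 110 ± 18.3 and 323 ± 98.7 CPM (log2 fold change 1.55). Rpsa, also known as the laminin receptor, had 396 ± 33.0 and 1024 ± 293 CPM (log2 fold change 1.37). All of these passed the edgeR test, with adjusted p of 7.61e-05, 0.00013 and 0.000175.

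Rps6, the substrate of the S6 kinases, moved less, from 384, 489, 364 and 425 CPM to 772, 841, 1030 and 712 CPM. The groups were separated by a wide gap, and the log2 fold change was 1.01 ± 0.160 (SE; edgeR adjusted p = 0.000379). With the length and GC correction it was 0.12 (edgeR adjusted p = 0.425), so the Rps6 call did not outlast that setting.

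In the large subunit, Rpl39, a small protein of the exit tunnel, led with 132, 98.6, 98.8 and 106 CPM at 12 weeks and 308, 412, 568 and 281 CPM at 2 years. Every 2-year library held more than 2-fold the highest 12-week level. The log2 fold change was 1.85 ± 0.221 (SE; edgeR adjusted p = 6.08e-05). The acidic stalk, which recruits the translation factors with GTPase activity, is formed by Rplp0, Rplp1 and Rplp2. The base of the stalk, Rplp0, was at 447 ± 60.9 CPM at 12 weeks and 1249 ± 271 CPM at 2 years (SD, n = 4; log2 fold change 1.48 ± 0.186 SE). Its partners Rplp1 (219 ± 61.5 and 700 ± 202 CPM) and Rplp2 (114 ± 4.20 and 326.1 ± 87.6 CPM) had log2 fold changes of 1.67 ± 0.243 and 1.51 ± 0.179 (SE). All stalk genes passed the edgeR test, with adjusted p of 8.17e-05, 0.000216 and 5.89e-05.

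The levels of Rpl5 and Rpl11, which together with 5S ribosomal RNA bind the p53 regulator Mdm2 when ribosome assembly is disturbed, were also higher. Rpl5 had 463 ± 50.04 and 984 ± 151 CPM (log2 fold change 1.09) and Rpl11 had 161 ± 20.7 and 409 ± 109 CPM (log2 fold change 1.35; SD, n = 4). Rpl13a, known outside the ribosome for silencing inflammatory messenger RNAs, had 337 ± 60.3 and 900 ± 281 CPM (log2 fold change 1.42). The edgeR adjusted p were 0.000192, 0.000166 and 0.00031.

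The lower end of the large subunit was formed by Rpl4, Rpl29, Rpl21 and Rpl14. Rpl4, a long protein that lines the exit tunnel, was at 660, 736, 608 and 704 CPM at 12 weeks and 870, 784, 971 and 950 CPM at 2 years. Its groups stood apart by less than 50 CPM, the highest 12-week library being replicate 2 and the lowest 2-year library replicate 2. The log2 fold change was 0.40 ± 0.136 (SE; edgeR adjusted p = 0.0283), and Rpl4 was the member closest to the threshold. The call for Rpl4 was lost when any one of replicates 1, 3 and 4 of the 12-week group or replicates 1 and 4 of the 2-year group was left out, with values from 0.35 to 0.41. With the length and GC correction it was -0.16 (edgeR adjusted p = 0.317).

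Rpl29, a basic protein that also binds heparin, was at 145, 135, 129 and 148 CPM at 12 weeks and 191, 194, 313.8 and 199.4 CPM at 2 years. Rpl21 was at 357, 410, 336 and 369 CPM and 523, 469, 868 and 532 CPM, and Rpl14 was at 281, 335, 261 and 286 CPM and 439, 477, 670 and 428 CPM. In all of them replicate 3 of the 2-year group was the highest library, and its distance from the next was largest in Rpl21. The log2 fold changes were 0.69 ± 0.171 for Rpl29, 0.70 ± 0.194 for Rpl21 and 0.79 ± 0.168 for Rpl14 (SE; edgeR adjusted p = 0.00589, 0.0104 and 0.00243).

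Levels were compared between members per kilobase of the shortest complete principal transcript in GENCODE M21 (GRCm38). At 12 weeks Rpl23a, which sits at the mouth of the exit tunnel, had 667 ± 87.2 CPM per kb, Rpl41, the smallest ribosomal protein, 578 ± 142, and Rps4x 516 ± 29.6 (SD, n = 4). Lower among the named members stood Rps15, of the small subunit head, with 483 ± 83.4, Rplp1 with 439 ± 123 and Rps14 with 314.2 ± 100.1 CPM per kb. At 2 years the order had changed. Rpl41 (1464 ± 503), Rps14 (1464 ± 447), Rplp1 (1402 ± 405) and Rpl23a (1364 ± 234 CPM per kb) then lay within 1 SD of each other. Rps27 (1245 ± 414) and Rps15 (1241 ± 394 CPM per kb) came after them. These SDs are over libraries in which the members moved together, so they do not measure differences between members. The orders were not tested. At the other end, Rps27l (64.6 ± 2.34 and 148 ± 19.4 CPM per kb) and Rpl10 (87.1 ± 26.0 and 225 ± 114 CPM per kb) were among the lowest. Rps20 was lower still (43.7 and 123 CPM per kb), computed on an annotated transcript of 3706 nt. The Rpl10 level leaves out its copy Rpl10-ps3, which held 80.7% to 93.6% of their combined counts. With the copy added, Rpl10 had a mean of 669 CPM at 12 weeks and 1483 CPM at 2 years.

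The libraries of a group were not alike, and the members moved together within a library. Replicate 3 of the 2-year group was the highest of its group for 76 of the 77 tested members, and replicate 4 was the lowest for 57. At 12 weeks replicate 1 was highest for 50 members and replicate 3 was lowest for 50. The coefficient of variation over the 4 libraries had a median of 11.7% at 12 weeks and 26.0% at 2 years. It was highest for Rps14 at 12 weeks (31.8%) and for Rpl10 at 2 years (50.5%). Without replicate 3 of the 2-year group all 77 members were still higher, with a median log2 fold change of 1.17.

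Because ribosomal protein transcripts are short, each was set against other genes of the same length bin. By the longest coding transcript, the tested members had a median of 914 nt and all tested genes a median of 3178 nt. In the shortest of 10 length bins, by the longest coding transcript, 1306 other genes had a median log2 fold change of 0.56 and an upper quartile of 0.96, and 56.4% of them were higher. The 62 members of that bin had a median of 1.35, and 57 lay above that quartile. The bin did not match them exactly in length. Its other genes had a median of 1038 nt, and most members in it were shorter (Rps29 390 nt, Rps21 394 nt). The median of other genes fell with length, to 0.32 in the next bin, so the distance from genes of equal length may be smaller. The other 15 members fell in longer bins and 14 of them lay above the upper quartile of their bin; the exception was Rpl4.

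With a library offset for length and GC content, 48 of 77 members remained higher and none was lower (edgeR adjusted p below 0.05; background 23% higher and 27.7% lower), with a median log2 fold change of 0.47. The other genes of the shortest length bin then had a median of -0.19, beside -0.06 over all tested genes. The corrected value was below 0 for Rpl4 (-0.16), Rpl23a (-0.13), Rps26 (-0.07) and Rpl24 (-0.02), none of which was called. The 29 members no longer called included Rps6, Rps4x, Rpl41, Rpl7, Rpl10, Rpl36a, Rpl14, Rpl21 and Rpl29. Lengths from the shortest principal transcript in the same correction gave 62 members higher (background 23.6% higher and 28% lower) with a median of 0.57. The largest corrected log2 fold changes, named after their values were seen, were those of Rps15a (1.81), Rps20 (1.497), Rps14 (1.42) and Rps3 (1.15), with edgeR adjusted p of 0.00015, 0.00158, 0.000151 and 0.000213. The longest coding transcripts of these genes have 5179, 3706, 785 and 1908 nt. The size of a corrected value depended on the transcript chosen: Rps15a had 0.74 with its shortest principal transcript of 640 nt, whereas Rps14 had 1.47. On the longest coding transcript, Spearman rho between log2 length and log2 fold change was -0.20 over the 77 members and -0.42 over all tested genes. After the correction it was 0.52 over the members, so longer members then had the larger values. These genes share the same 8 libraries, and on the shortest principal transcript rho before correction was -0.37 over the members.

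**Figure D3:**
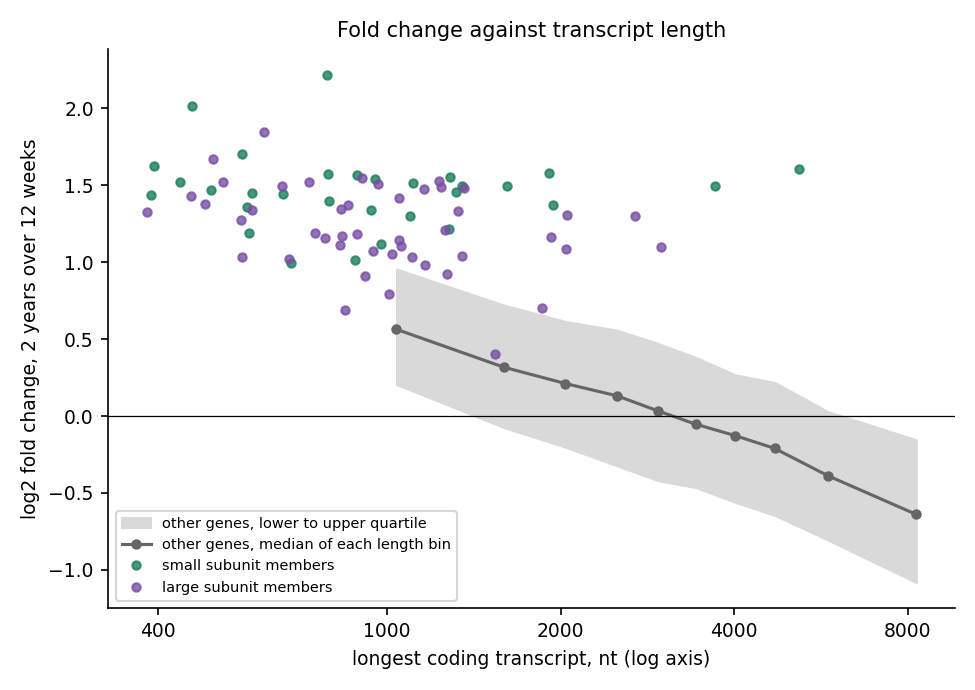
Log2 fold change, 2 years over 12 weeks (y axis), against the longest coding transcript in nt on a log axis (x axis). The grey line and band give the median and quartiles of the other tested genes in 10 length bins, and points are 76 members coloured by subunit. The band is drawn between the median lengths of the bins and starts at 1038 nt, so shorter members lie to its left. Nearly all longer members lie above the band, and Rpl4 lies inside it.

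Since most members moved up together, the next comparison was among the members themselves. The library size was replaced by the summed counts of the members, so that a gene is higher or lower only relative to the ribosomal protein pool. On this scale 4.79% of all tested genes were higher and 80.3% lower, 85.1% in all, because the pool itself had grown. Of the 77 members, 3 were higher, 4 were lower and 70 were not called. With so many genes called, the adjustment over all genes hardly changed a member's p. The edgeR p of Rpl14 was 0.0317 before and 0.0379 after it, and that of Rpl4 0.00292 and 0.00413. No adjustment was made over the members alone, so these calls are close to unadjusted ones.

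Rps14 made up 1.33%, 0.712%, 0.958% and 1.09% of the member counts at 12 weeks and 1.85%, 2.33%, 1.98% and 1.73% at 2 years. The 2-year libraries were all higher, and the smallest share was in replicate 2 of the 12-week group. The relative log2 fold change was 0.95 ± 0.237 (SE; edgeR adjusted p = 0.00188). Rps27 (0.586% ± 0.144 and 0.964% ± 0.0878, SD, n = 4) had a relative value of 0.72 (edgeR adjusted p = 0.00883). Rpl39 (0.599% ± 0.0534 and 0.880% ± 0.0819) had 0.55 (edgeR adjusted p = 0.0168).

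In the other direction, Rpl4 made up 3.34%, 4.13%, 3.75% and 3.73% of the member counts at 12 weeks and 2.36%, 1.73%, 1.68% and 2.68% at 2 years. Its share was lower in every 2-year library, and replicates 2 and 3 of that group were the lowest. The relative log2 fold change of Rpl4 was -0.82 ± 0.231 (SE; edgeR adjusted p = 0.00413). Rpl29 (0.768% ± 0.0281 and 0.513% ± 0.0601) and Rpl21 (2.03% ± 0.207 and 1.36% ± 0.224) both had a relative value of -0.58 (edgeR adjusted p = 0.0126 and 0.0221). Rpl14 (1.61% ± 0.197 and 1.15% ± 0.0719) had -0.48 (edgeR adjusted p = 0.0379) and was the called member nearest to the threshold. Just outside lay Rps18 (relative log2 fold change 0.43, edgeR adjusted p = 0.0558).

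Read by whether the percent of member counts overlapped between the groups, 26 members were higher without overlap, 13 were lower and 38 overlapped (background 3.91% higher and 77.3% lower). The small subunit contributed 17 higher and 1 lower out of 31, and the large subunit 9 higher and 12 lower out of 46. The relative calls moved with the length correction. With it, 14 members were higher and 12 lower, or 9 and 10 with the shortest principal transcripts. Rps14 remained among the higher and Rpl4, Rpl29 and Rpl14 among the lower under both, whereas Rps27 was not called under either. Without replicate 3 of the 2-year group 6 were higher and 6 lower, with Rps18, Rps3 and Rps15a added on one side and Rpl6 among those added on the other. Without replicate 2 of the 12-week group, or replicate 3 of it, or replicate 2 of the 2-year group, only Rpl29 and Rpl4 remained lower. Rpl39 was not called without replicate 2 or replicate 4 of the 12-week group. Rpl14 kept its call only when the library left out was replicate 3 or 4 of the 2-year group.

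**Figure D4:**
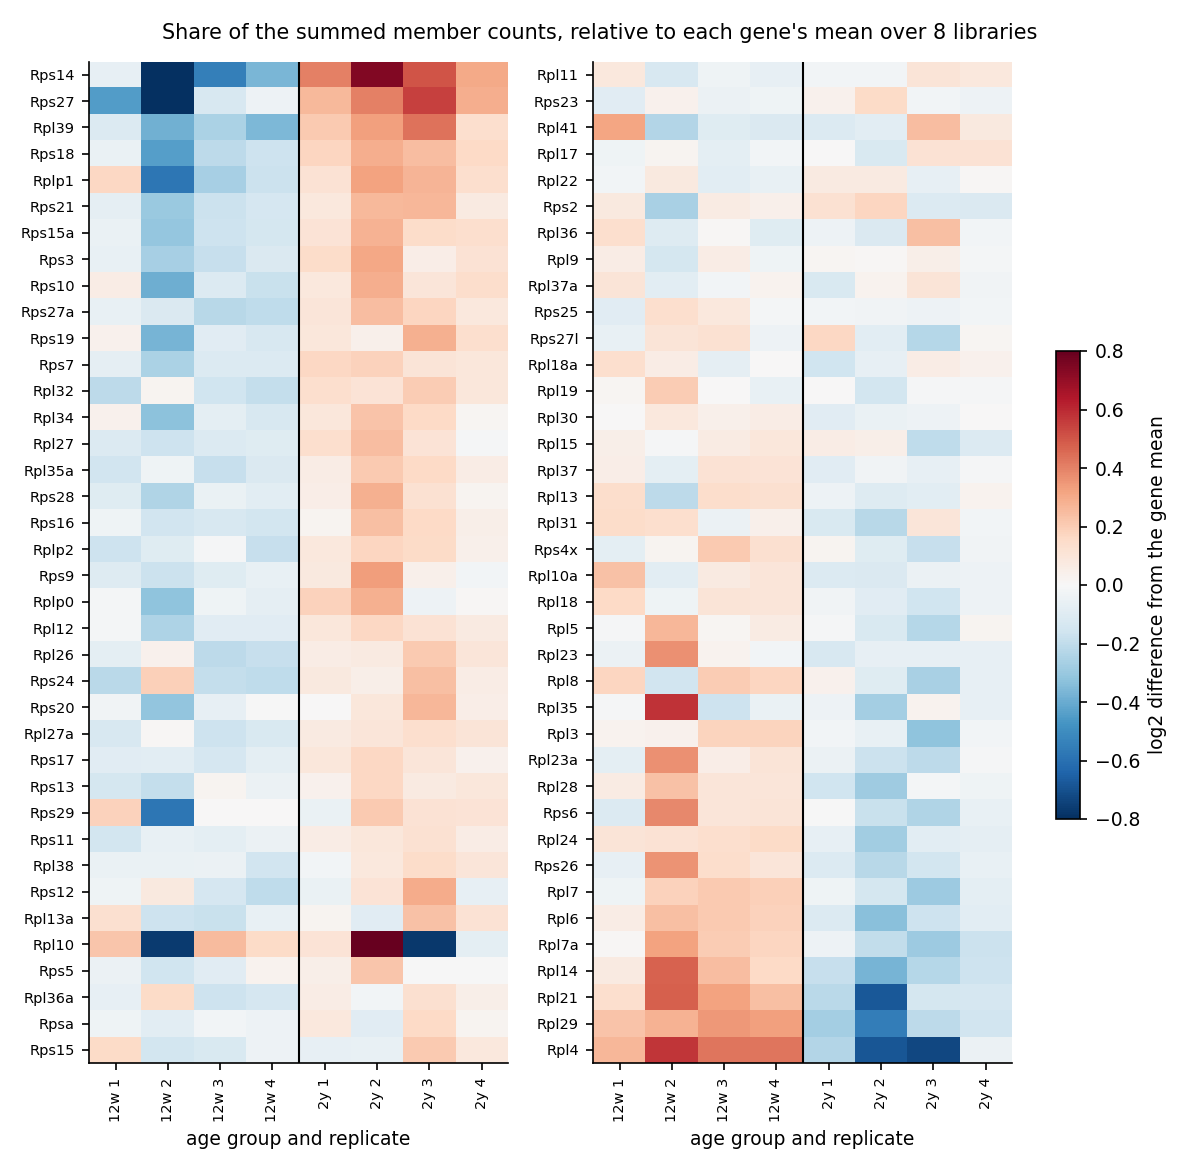
Percent of the summed member counts held by each of 76 tested members, as the log2 difference from that gene's mean over the 8 libraries (colour, red higher and blue lower), with libraries on the x axis and members ordered by their relative log2 fold change from the top left to the bottom right. Replicate 2 at 12 weeks and replicates 2 and 3 at 2 years show the strongest colours. Rps14, Rps27 and Rpl39 open the order and Rpl4, Rpl29 and Rpl21 close it.

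Several ribosomal proteins have paralogs, some used by a single tissue. Rpl10l, a testis form of Rpl10, had 0 counts in all libraries. Rpl39l, another testis form, had 2, 7, 2 and 3 counts at 12 weeks and 7, 2, 7 and 0 at 2 years. Rpl3l, the striated muscle form of Rpl3, had 0, 23, 8 and 1 counts and then 12, 0, 0 and 0. These 3 members did not pass the count filter of the edgeR test. No marker of germ cells passed the count filter either.

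Most Rpl3l counts sat in libraries with many skeletal muscle transcripts, but replicate 3 of the 2-year group held such transcripts and had 0 Rpl3l counts. Acta1, the skeletal muscle actin, had 4, 977, 464 and 105 counts at 12 weeks and 407, 17, 115 and 2 at 2 years. Atp2a1, the calcium pump of fast skeletal muscle, had 1, 1324, 550 and 87 counts and then 411, 23, 103 and 2. The heart gene Myh6 was instead highest in replicate 3 of the 12-week group, with 11577 counts against 12 to 488 in the others. That library had 8 Rpl3l counts. The part of muscle tissue in the Rpl3l counts was not tested.

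Rps27l, a paralog of Rps27 and a known p53 target, was the paralog with appreciable counts among the members. It rose from 33.0, 33.3, 30.7 and 31.9 CPM to 71.9, 74.6, 85.9 and 62.4 CPM. The 12-week libraries were nearly equal, and every 2-year library lay far above them. The log2 fold change of Rps27l was 1.19 ± 0.125 (SE; edgeR adjusted p = 2.46e-05), the smallest p among the members. It was 0.03 with the length and GC correction (edgeR adjusted p = 0.798) and 0.27 with the shortest principal transcripts (edgeR adjusted p = 0.0225).

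Against its parent, Rps27l had 30.7%, 46.4%, 27.9% and 23.5% of the Rps27 count at 12 weeks and 22.1%, 16.8%, 13.7% and 19.4% at 2 years. The groups did not overlap, but the highest 2-year and lowest 12-week libraries were close. The log2 ratio differed by -0.81 (exact permutation p = 0.0286, and 0.0572 after Benjamini-Hochberg adjustment over the 6 pairs tested), so it did not pass the adjusted threshold. Among the same tests, the ratio of Rpl7l1 to Rpl7 differed by -0.55 and that of Rpl36al to Rpl36a by -0.38, with the same exact permutation p and adjusted values. Rpl36al had 73.6%, 83.5%, 73.6% and 70.8% of the Rpl36a count at 12 weeks and 61.4%, 59.6%, 49.2% and 61.8% at 2 years, again without overlap. The Rpl7l1 and Rpl36al ratios depended on the length correction. After removal of the length and GC trend the log2 difference was -0.82 for Rps27l (exact permutation p = 0.0286), -0.03 for Rpl7l1 (exact permutation p = 0.629) and 0.23 for Rpl36al (exact permutation p = 0.0857), the last with its sign reversed. With the shortest principal transcripts in that correction the differences were -0.78, -0.46 and -0.32 (exact permutation p = 0.0286 each).

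For Rpl22l1, whose level is controlled by its paralog Rpl22, the ratio was 21.3%, 15.7%, 20.9% and 22.9% of Rpl22 at 12 weeks and 22.5%, 19.8%, 25.03% and 17.9% at 2 years. The groups overlapped, and the log2 difference was 0.08 (exact permutation p = 0.629). The difference changed sign when replicate 2 of the 12-week group or replicate 3 of the 2-year group was left out (-0.037 and -0.0021). With the fitted length and GC trend removed it was -0.71 (exact permutation p = 0.0286), and 0.13 (exact permutation p = 0.6) with the shortest principal transcripts, so the direction of the Rpl22l1 ratio depended on the setting. Rpl22 itself was higher (137 ± 13.7 and 338 ± 68.1 CPM, SD, n = 4; log2 fold change 1.31, edgeR adjusted p = 7.69e-05). The ratios of Rpl39l to Rpl39 (log2 difference -2.08, exact permutation p = 0.0571) and Rpl3l to Rpl3 (-2.65, exact permutation p = 0.171) rest on 30 and 44 counts in all.

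Copies of Rpl10 and Rps27 held many counts and bear on their parents. Rpl10-ps3, a processed copy of Rpl10, had 189629 counts over the 8 libraries, against 25215 for Rpl10 itself, a protein added late in the making of the large subunit. The copy took 80.7% to 93.6% of their combined counts, and how reads matching both were assigned is not given in the sources used here. Rpl10 alone was at 86.7, 39.5, 72.9 and 79.1 CPM at 12 weeks and 150, 315, 128 and 127 CPM at 2 years, with replicate 2 the lowest of one group and the highest of the other. With both added, the levels were 706, 614, 649 and 709 CPM and 1342, 1637, 1705 and 1249 CPM, and no library stood apart from its group. The log2 fold change was 1.37 ± 0.340 for Rpl10 alone and 1.15 ± 0.153 for the sum (SE; edgeR adjusted p = 0.00729 and 0.000122).

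Rps27rt, a copy of Rps27, held 36.1%, 48.6%, 22.2% and 20.1% of their combined counts at 12 weeks and 21.7%, 16.7%, 18.8% and 19.9% at 2 years. Replicates 1 and 2 of the 12-week group stood above the other 6 libraries. The sum of both was higher by 1.78 ± 0.210 on the log2 scale (SE; edgeR adjusted p = 5.52e-05), below the 2.01 of Rps27 alone, and by 0.49 relative to the member pool (edgeR adjusted p = 0.0284). Over the sum, the log2 ratio of Rps27l was -2.26 ± 0.155 in the younger and -2.81 ± 0.270 in the older group (SD, n = 4; exact permutation p = 0.0286). Adding the counts of such copies to their parents left all 77 members higher and the same members called relative to the pool.

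**Figure D5:**
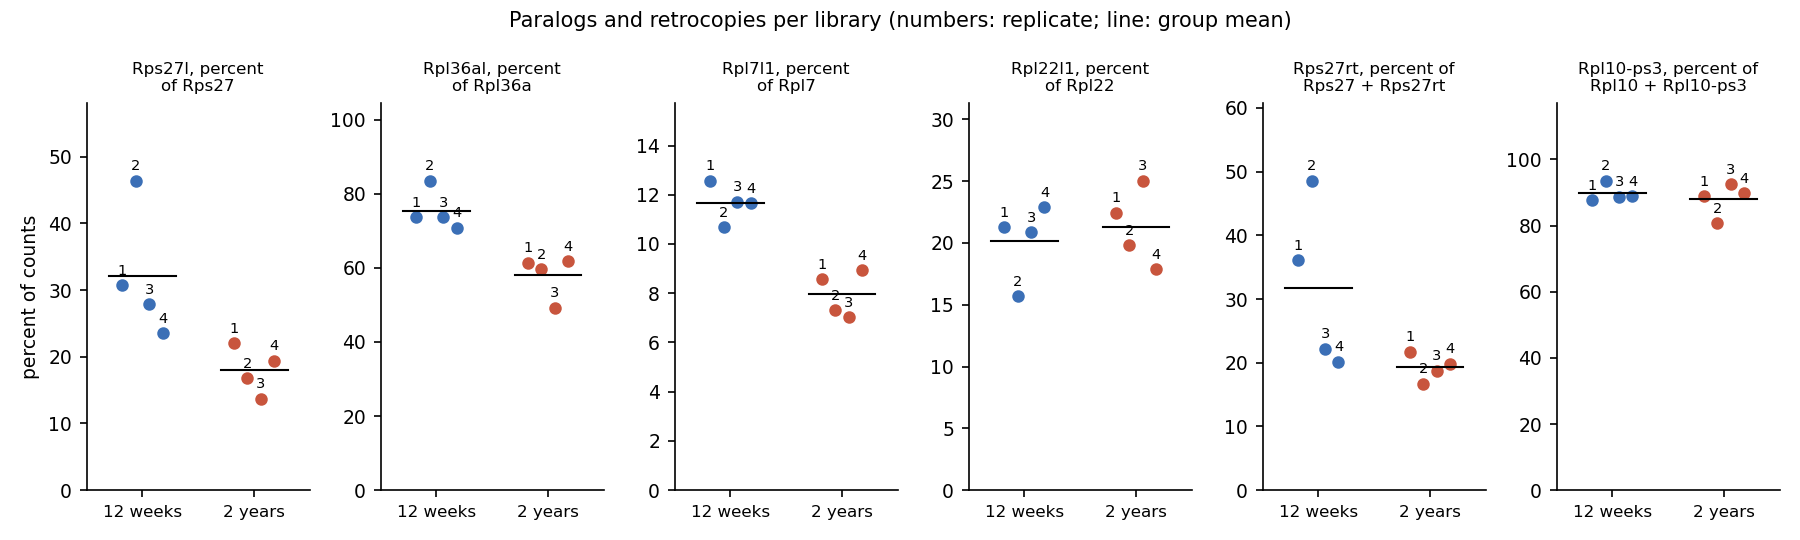
Paralog counts as percent of the parent (first 4 panels) and copy counts as percent of copy plus parent (last 2 panels), by age group (x axis). Points are libraries numbered by replicate, lines are group means, and each y axis starts at 0. Without a length correction, the groups stand apart for Rps27l, Rpl36al and Rpl7l1 and overlap for Rpl22l1 and Rpl10-ps3, and for Rps27rt 12-week replicates 1 and 2 stand high.

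Ribosomal genes outside the symbol rule were higher as well. Fau, a ubiquitin-like fusion with a small subunit protein, had 131 ± 18.7 CPM at 12 weeks and 407 ± 146 CPM at 2 years (SD, n = 4; log2 fold change 1.63, edgeR adjusted p = 0.000178). Rack1, a signalling scaffold on the small subunit, had 272 ± 45.5 and 784 ± 183 CPM (log2 fold change 1.53, edgeR adjusted p = 9.33e-05). Rps3a1 had 581 ± 46.2 and 1103 ± 126 CPM (log2 fold change 0.93, edgeR adjusted p = 0.000301). Under the same correction Fau (0.88) and Rack1 (0.95) stayed above the threshold, with edgeR adjusted p of 0.000358 and 0.000649. The Rps3a1 call was lost (0.08, edgeR adjusted p = 0.55).

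Other genes with terminal oligopyrimidine starts were higher in part. Of 21 translation factors and related genes of that kind, 14 were higher, none was lower, and the median log2 fold change was 0.70, beside -0.01 over all genes and 1.35 over the members. They included Tpt1 (965 ± 71.0 and 2569 ± 576 CPM, SD, n = 4; log2 fold change 1.41), the elongation factor subunit Eef1b2 (1.34) and the initiation factor subunit Eif3h (1.06), with edgeR adjusted p of 0.000108, 8.6e-05 and 0.000195. Once corrected for length and GC, 14 were higher and 1 lower, with a median of 0.38 beside the 0.47 of the members. Of 28 other initiation factor genes, 13 were higher and 4 lower (median 0.29). For both lists the background over all tested genes was 25.8% higher and 26.2% lower, and 23% and 27.7% with the correction. Eif3k (0.97), Eif3i (0.99) and Eif5a (0.95), the factor that carries hypusine, were among those that rose, with edgeR adjusted p of 0.000199, 0.000293 and 0.000623. Those called lower were Eif4g3 (-0.94), Eif4g1 (-0.74), Eif4g2 (-0.61) and Eif4a2 (-0.48), with edgeR adjusted p of 0.00853, 0.00234, 0.0182 and 0.0111. After the correction 7 of the 28 were higher and 3 lower (median 0.17). Eif3i (0.32) and Eif5a (0.48) were then still called, and Eif3k was not (0.19, edgeR adjusted p = 0.11). Eif4g1 (-0.38) and Eif4a2 (-0.68) were still lower, whereas Eif4g2 and Eif4g3 were not called.

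Of 44 genes that assemble ribosomes, 13 were higher, 3 lower and 28 not called, beside 25.8% higher and 26.2% lower among all tested genes, with a median log2 fold change of 0.11. The correction left 10 higher and 8 lower, with a median of -0.06, beside 23% higher and 27.7% lower among all tested genes. The called ones included Fbl, the methyltransferase fibrillarin (20.9 ± 2.56 and 38.6 ± 4.54 CPM; log2 fold change 0.89), Nhp2 of the pseudouridylation complex (0.95) and Imp3 (0.92), with edgeR adjusted p of 0.000278, 0.000601 and 0.000533. After the correction Fbl was still called (0.36, edgeR adjusted p = 0.00771), while Nhp2 (0.26) and Imp3 (0.22) were not (edgeR adjusted p = 0.0637 and 0.11). Of 32 genes for RNA polymerases I and III and their factors, which transcribe ribosomal, 5S and transfer RNA, 5 were higher and 8 lower (median -0.15), a lower share close to the 26.2% of all tested genes. After the correction 2 were higher and 10 lower (median -0.11). The RNA polymerase III subunit Polr3e fell by 0.90 on the log2 scale, and its factors Brf1 and Gtf3c2 by 0.91 and 0.98 (edgeR adjusted p = 0.000151, 0.000215 and 0.00023), and all were still lower after it.

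Genes of the mTORC1 and Larp pathway were divided, with 9 higher and 8 lower of 30 (median -0.10), both shares near the 25.8% and 26.2% of all tested genes. Once corrected, 6 were higher and 8 lower (median -0.04), beside 23% and 27.7% of all tested genes. The S6 kinase gene Rps6kb2 fell from 22.5 ± 4.73 to 6.37 ± 1.32 CPM (SD, n = 4; log2 fold change -1.82, edgeR adjusted p = 3.39e-05). Tsc1, an inhibitor of mTORC1, was lower (-1.17, edgeR adjusted p = 7.75e-05), and Lamtor1, which holds mTORC1 at the lysosome, was higher (1.13, edgeR adjusted p = 0.00069). These 3 kept their calls with the correction, at -1.53, -0.64 and 0.54. Of 21 genes for ribosome rescue, quality control and the stress signals that start from stalled ribosomes or ribosomal proteins, 2 were higher and 6 lower (median -0.19). The lower share was near the 26.2% of all tested genes, and the higher share was below their 25.8%. After the correction 2 were higher and 7 lower (median -0.22), beside 23% and 27.7% of all tested genes. Map3k20, a kinase that senses ribosome collisions, fell by 1.70 on the log2 scale and Eif2ak4, the kinase Gcn2, by 1.31 (edgeR adjusted p = 0.000373 and 0.000219). Cdkn1a, the p53 target p21, was higher by 1.15 (edgeR adjusted p = 0.000324). All of these kept their calls with the correction, at -1.34, -1.08 and 0.91.

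Set beside the members gene by gene, the comparison complexes had smaller medians and lost most calls with the length and GC correction. For the mitochondrial ribosome, 43 of 78 genes were higher and none lower, with a median of 0.40, and 10 higher and 24 lower after the correction. For the respiratory chain, 68 of 78 tested genes were higher and 1 lower, with a median of 0.69, and 10 higher and 19 lower after it. Of 36 tested constitutive proteasome genes, 28 were higher and none lower, with a median of 0.51, and 5 higher and 4 lower after it. The members kept 48 higher and 0 lower under the same correction. Among all tested genes 23% were then higher and 27.7% lower. The correction left other genes of the shortest length bin at a median log2 fold change of -0.19, so calls of short genes depend on it.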

How the data were processed

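Total RNA of aorta was sequenced on a NovaSeq 6000, per the labels' protocols. The authors deposited raw counts per gene symbol for each library, on GRCm39 per the submitters' processing notes. The sources used here do not give the aligner, counting rule, annotation or strand setting. The members and gene lists were chosen with earlier results of these data known. Within-group chi-square values per degree of freedom were at least 23.5, so no library was a repeat of another.

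Low-count genes were removed (filterByExpr), libraries scaled by TMM and age groups compared with edgeR 4.0.16 in R 4.3.3, with Benjamini-Hochberg adjustment over 13978 genes and a threshold of 0.05. Single values per library had two-sided exact permutation tests over 70 splits, and paralog ratios a pseudocount of 0.5. P-values measure the spread between these libraries, 1 per mouse as far as the labels say. The relative comparison used the summed member counts as library size. The length and GC correction fitted a spline with 4 degrees of freedom per library over the longest coding transcripts of GENCODE M21, with lengths for 97.8% of tested genes. RefSeq promoters (GRCm38.p6) were matched by symbol, and no coordinates were converted. DESeq2 1.42.0, limma 3.58.1, DESeq2 size factors, TMM without the members, no filter, left-out libraries and a replicate block were alternatives. The code was tested on simulated data. Long non-coding host genes of small nucleolar RNAs were not analysed here, and a few results are not reported here.

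Named members were the paralogs and their parents, untested members, the 5 largest and 5 smallest log2 fold changes, the 5 highest per-kilobase levels, up to 5 per direction departing from the member pool, 11 with known roles, those next to the threshold, and up to 3 called genes per other list with the smallest p. The initiation factors called lower were also named, after their values were seen.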

Additional observations from a re-analysis of the deposited data

Results flagged for a closer look

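In groups of 4 libraries, chance puts 1 library this far from the others in about 1 of 20 groups, and 7 of 78 groups scanned had one. For Rpl21, Rpl29 and Rpl13a it was replicate 3 of the 2-year group that stood far above the rest, at 868.2, 313.8 and 1317 CPM, with the next library at 532.4, 199.4 and 821.5 CPM. That library was the shallowest and had the highest mitochondrially encoded share. These genes were still higher with it left out (edgeR adjusted p below 0.05). Rpl10 stood out in replicate 2 of the 2-year group (315.3 CPM, the next at 150.1), and its sum with Rpl10-ps3 did not.

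The log2 ratio of small to large subunit counts was lowest in replicate 2 of the 12-week group (-0.7741, the next at -0.6939). The log2 ratio of Rpl3l to Rpl3 was highest in replicate 1 of the 2-year group (-11.27, the next at -15.08), which rests on 12 counts. The log2 ratio of Rpl36al to Rpl36a was lowest in replicate 3 of the 2-year group (-1.023, the next at -0.7464).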

How the results depend on the processing

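All 77 tested members were higher with DESeq2, limma voom, DESeq2 size factors, TMM without the members and mitochondrial genes, no low-count filter and copies added to parents. Leaving out 1 library gave 76 to 77, and leaving out replicate 3 of both groups gave 76. The length and GC correction gave 48. No pairing by replicate number was found (correlations of same-numbered libraries -0.31 to 0.05), and a replicate block gave 76 members higher, or 45 with the correction.

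Relative to the member pool, 3 higher and 4 lower became 14 and 12 with the correction, 9 and 10 with it on the shortest principal transcripts (an alternative chosen after seeing the data, as was adding copies), 2 and 1 with the replicate block, and 6 and 7 with block and correction. Leaving out 1 library gave 2 to 6 higher and 2 to 6 lower.

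Without replicate 3 of both groups an exact test cannot go below p = 0.1. The differences were then 2.23 percentage points for the member share, 0.24 for the log2 subunit ratio, 0.73, 0.41 and 0.55 for the log2 ratios to mitochondrial ribosome, respiratory chain and proteasome, and -0.741, -0.493 and -0.315 for the Rps27l, Rpl7l1 and Rpl36al ratios. As a replicate block over same-numbered pairs, where p cannot go below 0.125, they were 2.62, 0.24, 0.84, 0.59, 0.71, -0.81, -0.55 and -0.38. With the length and GC trend removed (ratios chosen after seeing the data) the share, subunit and complex differences kept exact permutation p = 0.0286. The Rpl7l1 ratio was then -0.0292 (exact permutation p = 0.629), the Rpl22l1 ratio turned from 0.08 to -0.71 and the Rpl36al ratio to 0.23, and the cause was not tested. The subunit ratio by medians was 0.18 (exact permutation p = 0.0571).

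Leaving out 1 library moved the Rps27l ratio between -0.947 and -0.620, with exact permutation p up to 0.0571, the Rpl39l ratio between -2.56 and -1.30, and the Rpl22l1 ratio between -0.037 and 0.160. The Rpl39l ratio was -2.56 without replicate 3 of the 2-year group and -1.74 with a pseudocount of 5 (exact permutation p = 0.0286 in both). The Rpl22l1 ratio was -0.037 without replicate 2 of the 12-week group and -0.0021 without replicate 3 of the 2-year group.

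Members turned negative with the correction: Rpl4 (-0.155, -0.061 on the shortest principal transcripts, -0.161 with the replicate block) and Rpl23a (-0.130, and -0.121 with the block), and Rpl29 on the shortest principal transcripts (-0.0095). Rps26 (-0.07) and Rpl24 (-0.02) were also below 0 with the correction. None of these passed the edgeR threshold, and the cause was not tested. The number of libraries limits the precision, and Rpl3l and Rpl39l also rest on few counts. Counting of reads shared with copies is not given in the sources used here and bears on Rpl10 and Rps27.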
